A study of Mus musculus with 3 samples.

Results

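Embryonic day 9.5 (E9.5) is the latest stage at which mesoderm lacking Wls was profiled in this series. The cells were chosen by their stage in the authors' per-cell table, and their raw UMI counts were summed for each MULTI-seq barcode, the lipid tag that marked each embryo sample before pooling. Barcodes with at least 20 cells were kept, which gave 8512 of the 8518 E9.5 cells, out of 14777 cells in the series, and 11 of 12 E9.5 barcode samples, out of 22 in all. The sample left out, Bar6, was a control with 6 cells. Each value below belongs to a barcode sample. The labels do not say how many embryos a barcode stands for, so p-values measure the spread between these samples, which may be technical.

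All embryos carried Mesp1-Cre, which acts in the early mesoderm and its descendants, and the Ai9 reporter, which turns recombined cells red, on a C57BL/6 background. Controls had 1 floxed and 1 intact allele of Wls (Wls fl/+), so that their recombined cells kept 1 working copy, and mutants had 2 floxed alleles (Wls fl/fl). Red cells were sorted, and the samples held cells with markers of heart, blood, vessel, head, trunk and limb mesoderm together. They also held neural-like cells (256, or 0.595 to 5.26% of a sample) and endoderm or epithelium-like cells (132), which are not mesoderm. There were 6 mutant samples (2785 cells, 51808638 UMIs) and 5 controls (5727 cells, 118946968 UMIs), with 927842 to 43470337 UMIs a sample. They came from 3 sequencing runs, here called A (3 mutants, 2 controls), B (1 and 1) and C (2 and 2), and run was a term in each fit. The mutant of run B, Bar5, had 57 cells. RNA quality moved with genotype in part, and sex was unevenly split between the genotypes. Cells of the mutants were shallower, with a median of 15508 UMIs against 18972 in the controls as a mean over samples (exact permutation p = 0.0167, two-sided within runs), and the mitochondrial share was 1.58 ± 0.47% against 1.92 ± 0.604% (SD; exact permutation p = 0.0167). The male share is the part of Y-linked reads among Y-linked and Xist reads. It was over 90% in 3 of 6 mutants (Bar19, Bar21 and Bar5) and 1 of 5 controls (Bar7; exact permutation p = 0.333 within runs for the genotype difference). Further, 3 cell barcodes occurred in more than 1 run. The part of depth and sex in the results was not tested, except for the fits with the male share as a covariate given below.

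Wls encodes the carrier that takes lipid-modified Wnt ligands from the Golgi to the cell surface, and cells without it make Wnt proteins but do not release them. A receiving cell responds through Frizzled receptors and, in the canonical branch, through beta-catenin. In the embryo Wnt signals act on the growth of somites, limb and head mesoderm and on when heart progenitors divide or differentiate. Most of the results below concern a list of genes known to rise in low oxygen, and oxygen itself was not measured. When oxygen falls, prolyl hydroxylases no longer mark the factors HIF1A and HIF2A for destruction, and these raise genes for glucose uptake, glycolysis, vessel growth and the hydroxylases themselves.

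The HIF factors bind DNA at short core sequences, of which only ACGTG was searched here. Promoters of the low-oxygen genes with the largest rises are shown first. They are the 250 bases before the start site in RefSeq on GRCm38.p6, 5′ to 3′ on the gene's strand, with each ACGTG, read on either strand (ACGTG or CACGT), in capitals. The 4 with the largest rises that were in the promoter table were Ddit4 (chr10:59951771-59952020, minus strand), Stc2 (chr11:31370062-31370311, minus), Adm (chr7:110627407-110627656, plus) and Egln3 (chr12:54203875-54204124, minus). Ldha (chr7:46845554-46845803, plus), with the most matches of the list, was added after the matches were seen.
Ddit4: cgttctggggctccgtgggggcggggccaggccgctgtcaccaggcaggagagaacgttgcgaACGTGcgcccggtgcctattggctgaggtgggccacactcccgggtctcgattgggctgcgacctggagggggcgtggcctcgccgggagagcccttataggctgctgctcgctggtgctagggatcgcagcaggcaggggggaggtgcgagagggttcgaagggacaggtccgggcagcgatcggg
Egln3: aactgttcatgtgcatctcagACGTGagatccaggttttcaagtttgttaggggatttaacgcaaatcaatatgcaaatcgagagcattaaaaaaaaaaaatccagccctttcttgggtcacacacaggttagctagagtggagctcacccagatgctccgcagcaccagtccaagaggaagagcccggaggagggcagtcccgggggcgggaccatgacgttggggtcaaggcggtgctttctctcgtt
Stc2: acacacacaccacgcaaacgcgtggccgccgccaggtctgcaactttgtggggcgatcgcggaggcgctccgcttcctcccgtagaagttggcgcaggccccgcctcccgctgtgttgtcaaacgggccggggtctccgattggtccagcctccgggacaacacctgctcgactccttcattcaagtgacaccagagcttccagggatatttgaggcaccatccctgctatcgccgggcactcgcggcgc
Adm: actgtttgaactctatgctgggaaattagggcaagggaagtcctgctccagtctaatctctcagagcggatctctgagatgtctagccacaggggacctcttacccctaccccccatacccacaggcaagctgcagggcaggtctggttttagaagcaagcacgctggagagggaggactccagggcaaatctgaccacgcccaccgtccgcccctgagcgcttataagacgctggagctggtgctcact
Ldha: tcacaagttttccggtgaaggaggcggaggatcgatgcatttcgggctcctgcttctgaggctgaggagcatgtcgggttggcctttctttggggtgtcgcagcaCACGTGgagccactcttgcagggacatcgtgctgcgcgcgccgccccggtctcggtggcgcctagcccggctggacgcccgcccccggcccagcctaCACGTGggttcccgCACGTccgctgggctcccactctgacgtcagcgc

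Ddit4 held 1 match, 187 bases before the start site, and Egln3 held 1, 229 bases before. Stc2 and Adm held no ACGTG in this window, and other forms of the core were not counted. Ldha held 5, of which 4 are the pairs that make up 2 palindromes CACGTG. Of the 26 promoters of the low-oxygen list in the table, 15 (57.7%) held a match, and of all 27025 promoters 4477 (16.6%) did. The palindrome CACGTG, which other factors bind too and which counts as a match on both strands, was in 2 of the 26 promoters and in 6.05% of all. A match is a run of letters, not a bound site.

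Wls itself was measured first, as a check of the genotype labels. It stood at 46.1, 46.0, 35.9, 38.5 and 40.6 CPM (counts of UMIs scaled to 1e6 per sample) in the controls Bar22, Bar23, Bar4, Bar7 and Bar9. The 6 mutants lay between 8.54 and 12.1 CPM with a median of 10.5. Each mutant was thus below each control. The means were 10.4 ± 1.43 CPM (SD, n = 6) and 41.4 ± 4.54 CPM (n = 5), and the log2 fold change was −2.07 (SE 0.10, edgeR adjusted p = 2.77e-07). The remaining level was not spread evenly over the cell classes defined further below. In cranial mesenchyme-like cells it was 1.76 ± 2.27 CPM in mutants against 52.9 ± 2.75 CPM in controls (−5.64, SE 0.43), and in cardiomyocyte-like cells 2.53 ± 2.77 against 55.6 ± 9.61 CPM (−4.31, SE 0.40). In lateral plate or limb-like cells it was 14.0 ± 4.21 against 56.8 ± 7.91 CPM (−2.09, SE 0.20), and in paraxial mesoderm-like cells 10.9 ± 2.27 against 29.9 ± 3.38 CPM (−1.51, SE 0.18), all with edgeR adjusted p of 0.00103 or below. Whether these folds differ between classes was not tested. The reads tag the 3′ end of the transcript and the labels do not say which exon is floxed, so a transcript without the floxed part would still be counted.

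In the comparison of all cells, 2121 of 18058 genes passed the threshold of 0.05 in edgeR (11.7%), 1039 higher in mutants (5.75%) and 1082 lower (5.99%). Among them 275 rose by more than 2-fold and 57 fell by more than 2-fold, and 1730 had the same sign in all 3 runs. The median log2 fold change of all genes tested was 0.02. The count depended on the samples left out: it was 894 without the control Bar22, 789 without the control Bar23, 1091 without the mutant Bar19 and 1305 without the mutant Bar21, all of run A, and rose to 2489 without Bar20, a mutant of the same run. It was 1447 to 2419 without any 1 of the other 6 samples, 1283 in run A alone and 58 in run C alone, 55 of them higher. Of the 132 genes named in this text as higher or lower in whole samples, 85 kept that call with each single sample left out, and the calls of the other 47 rest on 1 or more samples. The calls lost were 43 without Bar23, 37 without Bar22, 28 without Bar19, 25 without Bar9, 24 without Bar10, 16 without Bar8, 16 without Bar21, 13 without Bar4, 12 without Bar5, 7 without Bar20 and 5 without Bar7. The 47 genes are Aen, Bambi, Bmp4, Bnc1, Cacna1c, Car12, Ccnd2, Cdc6, Col26a1, Col2a1, Cox5a, Dkk3, Ebf1, Epas1, Eya1, Flt1, Foxc1, Foxd1, Foxf2, Frzb, Fzd4, Gapdh, Gata4, Gata5, Heyl, Hoxb1, Hspa8, Mcm2, Mcm4, Mef2c, Mns1, Nkd2, Nrp1, Pax1, Plk1, Rarb, Ryr2, Sesn2, Six2, Tagln, Tbx1, Tbx20, Tbx3, Tcf15, Uqcrc1, Wnt11 and Zfp36. A difference over whole samples mixes the make-up of cell types with the level per cell, and in such sums fewer cells of a type cannot be told apart from less RNA per cell.

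**Figure D1:**
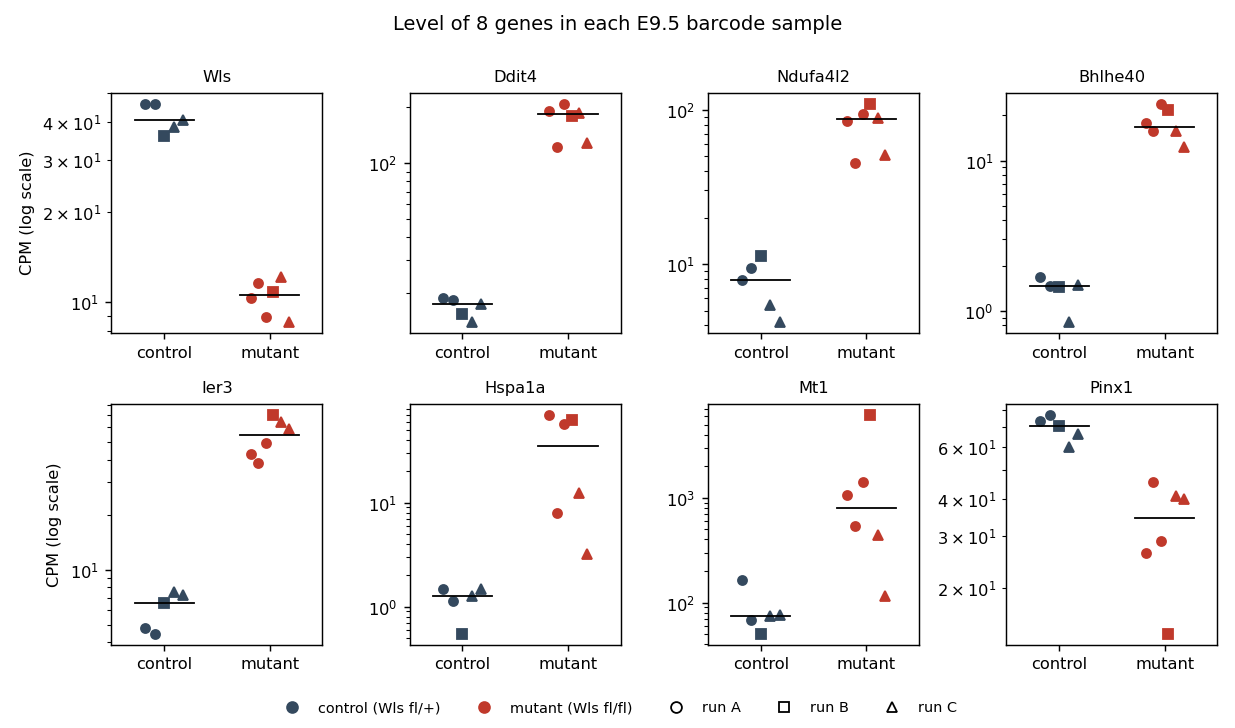
Level of 8 genes in CPM on a log axis in each E9.5 barcode sample, 5 controls (dark) and 6 mutants (red), with the marker shape giving the run and the line the median. Wls and Pinx1 are lower in each mutant than in each control, Ddit4, Ndufa4l2, Bhlhe40, Ier3 and Hspa1a are higher, and Mt1 overlaps, with one control at 165.7 CPM and one mutant at 114.7 CPM.

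The low-oxygen list rose almost as a whole. All 31 members were tested, 30 rose, none fell, and the median log2 fold change was 1.57. Of all genes tested 5.75% rose. For 28 members the 2 genotypes did not overlap, against 3.86% of all genes tested. The list was composed with earlier results of these data known, so its count describes the size of the rise. Its summed level was 0.64 to 0.888% of all UMIs in mutants (median 0.80%) and 0.313 to 0.46% in controls (median 0.425%), without overlap. The count of rises was 30 in DESeq2, 29 with the male share as covariate, 30 without the blood, megakaryocyte and endothelial clusters, 28 in run A alone, 20 in run C alone and 29 or 30 with any 1 sample left out. None of the 14 blood, 11 endothelial, 11 neural or 9 endoderm markers passed the threshold in either direction, and of 8 megakaryocyte and myeloid markers 1 rose. Single omissions gave 1 endothelial marker (without Bar5 or Bar4), 1 neural and 1 endoderm marker (without Bar8) and 4 megakaryocyte markers (without Bar9). With the male share as covariate 3 endoderm markers were higher, and 1 blood and 1 megakaryocyte marker were lower. DESeq2 gave 1 blood marker lower, and voom gave 4 megakaryocyte markers and 1 endoderm marker higher. In run A alone, 6 blood and 4 megakaryocyte markers were higher, and the part of blood in that run's counts was not tested. The blood markers summed to 4.97 to 23.8% of UMIs in mutants and 3.9 to 22.9% in controls.

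The largest rises of the list were in Bhlhe40, Ndufa4l2 and Ddit4. Bhlhe40, a transcriptional repressor induced by hypoxia, was at 1.68, 1.46, 1.44, 0.838 and 1.49 CPM in the controls. In the mutants it lay between 12.3 and 23.8 CPM with a median of 16.7. The groups were far apart, and the fold change was 12.1 (log2 3.59, SE 0.19, edgeR adjusted p = 3.47e-07). Ndufa4l2, which lowers the use of oxygen by complex I, was at 7.87, 9.41, 11.3, 5.44 and 4.19 CPM in the controls and at 45.1 to 109 CPM in the mutants (median 86.4). It rose 10.3-fold (log2 3.36, SE 0.24, adjusted p = 6.08e-06). Ddit4, a brake on the growth kinase mTORC1, was at 18.6, 18.3, 15.4, 13.8 and 17.4 CPM in the controls and at 122.4 to 209.0 CPM in the mutants (median 183.3). It rose 9.78-fold (log2 3.29, SE 0.17, adjusted p = 3.47e-07), and its lowest mutants were Bar20 and Bar8.

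Further secreted and signalling members rose with them. Ndrg1, a stress-induced cytoplasmic protein, rose by 3.09 on the log2 scale (SE 0.21), from 2.51 to 6.99 CPM in the controls to 26.7 to 71.3 CPM in the mutants. Stc2, a secreted glycoprotein of calcium and stress physiology, rose by 2.94 (SE 0.31), and Adm, the vessel-acting peptide adrenomedullin, by 2.56 (SE 0.23). Stc2 reached 67.9 CPM in the shallow sample Bar5, while the other 5 mutants had a lower level, and left-out samples kept its edgeR adjusted p at 0.00108 or below. Vegfa, the main growth factor for vessels, was at 28.9, 23.8, 18, 13 and 23.3 CPM in the controls. In the mutants it was at 46.4 to 79.3 CPM with a median of 73.8, so that the groups did not overlap (log2 1.57, SE 0.18, edgeR adjusted p = 2.27e-04). Bnip3, a mitophagy receptor, rose 4.15-fold and Car9, the membrane carbonic anhydrase that exports acid, 5.12-fold from a low level (0.628 ± 0.243 CPM in controls, n = 5).

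Enzymes, regulators and mitochondrial proteins of the list rose too. P4ha2 and P4ha1, which hydroxylate collagen, rose 3.58-fold and 2.89-fold, and Plod2, which hydroxylates its lysines, 2.17-fold. Ero1l, an oxidase that forms disulphide bonds in the secretory pathway, rose 3.66-fold, from 22.6 to 30 CPM in the controls to 65.1 to 193 CPM in the mutants. Kdm3a, a histone demethylase, rose 2.24-fold, Mxi1, a partner of MAX that opposes MYC, 1.95-fold, and Ankrd37, a small ankyrin protein, 4.99-fold. Fam162a and Higd1a, mitochondrial proteins at 318 ± 43.3 and 169 ± 26.9 CPM in controls, rose 2.11-fold and 1.7-fold. Aldoc, an aldolase, rose 5.16-fold and Pfkfb3, which makes the activator of phosphofructokinase, 3.5-fold. The 2 members that rose with overlap were Ak4, a mitochondrial adenylate kinase (log2 0.72, SE 0.13), and Car12, a carbonic anhydrase (0.66, SE 0.17, edgeR adjusted p = 0.026, which rose to 0.129 with 1 sample left out).

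The sensors of the pathway did not all move one way. Of 10 HIF factors and regulators, 3 rose and 1 fell, where 5.75% of all genes tested rose and 5.99% fell. Egln3, an oxygen-dependent prolyl hydroxylase, rose 5.84-fold (log2 2.55, SE 0.18) and Egln1, the main hydroxylase of HIF1A, 2.67-fold (log2 1.42, SE 0.10), both with edgeR adjusted p of 7.11e-06 or below. Egln2, another hydroxylase of the family, fell by 0.43 (SE 0.08, adjusted p = 0.007). Epas1, which encodes HIF2A, rose by 0.88 from a low level (1.43 ± 0.459 to 2.93 ± 0.878 CPM), with adjusted p = 0.0414, which rose to as much as 0.188 with 1 sample left out. The transcript of Hif1a itself was at 70.4 ± 17.2 CPM in the mutants and 74.4 ± 8.8 CPM in the controls (log2 −0.15, SE 0.09, adjusted p = 0.319). HIF1A is controlled as a protein, which these data do not measure. The one member of the low-oxygen list that did not pass was Pfkfb4, at 0.05 (SE 0.29, adjusted p = 0.96).

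The mutants differed among themselves in a way that ran through the list. Of the 30 members that rose, 17 had their lowest mutant level in Bar20 and 8 in Bar8, and 15 had their highest in Bar5 and 8 in Bar21. Bar20 and Bar8 had few male reads, as had Bar10, which was lowest for 1 gene and highest for 3. Bar5 and Bar21 had mostly male reads, as had Bar19, which was lowest for 1 and highest for 2. The order is of levels without a run term. In the controls the list summed to 0.425 and 0.438% of UMIs in run A, 0.46% in run B and 0.313 and 0.341% in run C. The parts of sex and run in this order were not tested. With the male share as covariate the median of the list was 1.42 and that of Ddit4 3.08 on the log2 scale, against 1.57 and 3.29 without it.

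Glycolysis rose with the low-oxygen list, with which it shares 7 members. Of 20 members 19 were tested and 17 rose, the 7 shared ones among them. None fell, and the median was 0.77. Of all genes tested 5.75% rose and 5.99% fell. Aldoa was under the low-count filter. Slc2a1, the main glucose transporter, was at 172.7, 159.4, 238.6, 134.0 and 124.7 CPM in the controls and at 352.8 to 477.6 CPM in the mutants (median 433.2). It rose 2.54-fold (log2 1.35, SE 0.12, edgeR adjusted p = 3.01e-05), and each mutant was above each control. Slc2a3, a transporter of higher affinity, rose 4.3-fold, and Hk2, which traps glucose as its phosphate, 2.62-fold. Pdk1, a kinase that inhibits pyruvate dehydrogenase, rose 2.45-fold, and Slc16a3, the lactate exporter, 1.78-fold. Abundant enzymes of the lower pathway rose too. Pgk1 rose 2.02-fold, Ldha 1.4-fold (from 1861 ± 360.0 to 2666 ± 225.3 CPM), Eno1 1.35-fold and Gapdh 1.22-fold. Pfkm and the transporter Slc16a1 did not pass (adjusted p = 0.35 and 0.111). With single samples left out, 15 to 17 members rose, against 13 in run A alone and 6 in run C alone.

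**Figure D2:**
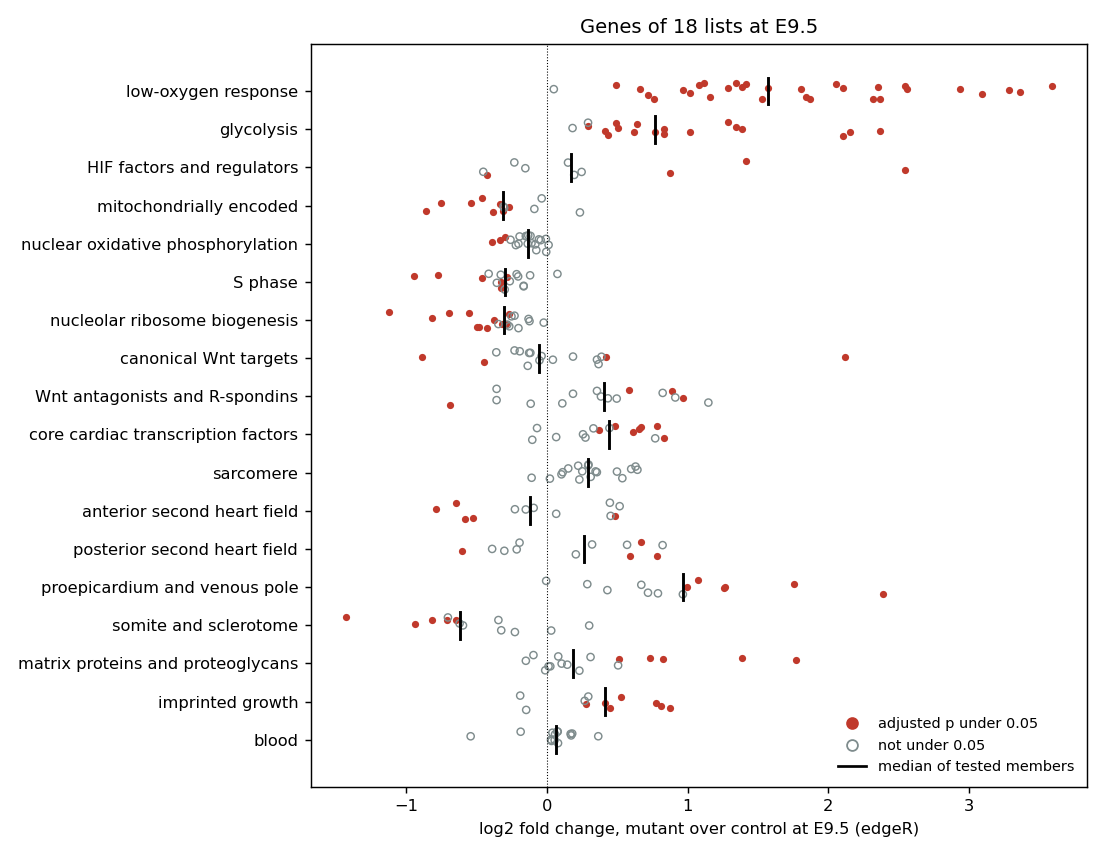
Log2 fold change, mutant over control, of the tested genes of 18 lists at E9.5 (edgeR, 11 samples), with 1 point per gene, filled in red where the adjusted p was under 0.05, and a bar at the list's median. The low-oxygen and glycolysis medians (1.57 and 0.77) lie to the right, those of the somite and nucleolar lists (−0.62 and −0.31) to the left, and the blood genes around 0.

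Transcripts of the mitochondrial genome moved the other way. Of 13, 8 fell and none rose, with a median of −0.31. The largest fall was in mt-Nd1, a subunit of complex I, at 4268, 4095, 2422, 2088 and 2549 CPM in the controls and at 912.9 to 2826 CPM in the mutants (median 1907). The groups overlapped across runs, and within the fit it fell by 0.86 on the log2 scale (SE 0.10, edgeR adjusted p = 2.98e-04). mt-Co1, a subunit of complex IV, was at 0.23 (SE 0.07, adjusted p = 0.0561). The fall was thus not shared by each member. Without Bar19, Bar22, Bar23 or Bar10, 5 of the 13 fell, and without Bar20, Bar8 or Bar7 1 rose. DESeq2 and voom each gave 1 higher and 9 lower, and 3 fell in run A alone and 0 in run C alone. These genes make up the mitochondrial share that also differed between the genotypes as a quality measure, and the part of RNA quality was not tested. Of 20 nuclear genes of oxidative phosphorylation, 3 fell (Cox5a, Sdhb and Uqcrc1), none rose, and the median was −0.13. Of these, 1 fell without any 1 of 8 samples (Bar19, Bar21, Bar22, Bar23, Bar5, Bar4, Bar10 and Bar7), where 5.99% of all genes tested fell.

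Part of the nucleolar and of the S phase genes fell, where 5.99% of all genes tested fell and 5.75% rose. Of 20 nucleolar genes of ribosome assembly, 11 fell, none rose, and the median was −0.31. Pinx1, a nucleolar inhibitor of telomerase, was at 73.5, 76.8, 70.7, 59.9 and 66.3 CPM in the controls and at 14.0 to 45.5 CPM in the mutants (median 34.4), without overlap. It fell by 1.12 on the log2 scale (SE 0.16, edgeR adjusted p = 0.00112). Bop1, needed to process the 28S rRNA precursor, fell by 0.82 (SE 0.14). Of 17 S phase genes, 6 fell (Ccne1, Cdc6, Mcm2, Mcm4, Rrm2 and Tyms) and none rose, with a median of −0.30. Ccne1, the cyclin that opens S phase, was at 110.6, 110.5, 117.1, 81.7 and 86.5 CPM in the controls and at 31.3 to 81.6 CPM in the mutants (log2 −0.95, SE 0.14, adjusted p = 0.00188). The highest mutant and the lowest control were nearly level. Of 15 genes of G2 and mitosis 2 fell, the kinases Aurka and Plk1, with 1 without Bar22 or Bar23 and 4 without Bar8. Ccnd1 and Ccnd2, cyclins that answer growth signals, fell by 0.45 and 0.26, and the inhibitor Cdkn1b rose by 0.75. Of the cyclins 1 fell without Bar19, Bar21, Bar22, Bar23, Bar10, Bar8 or Bar9. The nucleolar count was 6 without Bar19 or Bar22, 7 without Bar21 or Bar23 and 2 in run A alone, and the S phase count was 3 without Bar23.

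Stress genes outside the low-oxygen list gave mixed results, and some of them rested on few samples. Of all genes tested 5.75% rose and 5.99% fell. Hspa1a, an inducible chaperone, was at 1.47, 1.14, 0.549, 1.26 and 1.49 CPM in the controls and at 3.2 to 69.3 CPM in the mutants (median 34.6). The 3 mutants with mostly male reads had 69.3, 56.8 and 62.5 CPM and the other 3 had 7.85, 12.4 and 3.2 CPM. Its log2 fold change was 4.87 (SE 0.71, edgeR adjusted p = 0.00152), and 2.97 (adjusted p = 2.42e-04) with the male share as covariate. Hspa1b, a near-identical copy whose reads may be shared with it, rose by 3.89. The level was highest in blood-like cells, where Hspa1a had 162.6 ± 127.8 CPM in the mutants (n = 4) and 0.483 ± 0.6 CPM in the controls (n = 5; log2 8.36, SE 0.84, adjusted p = 3.88e-04). The blood-like cells of the genotypes were split differently over 2 clusters, with 398 mutant and 453 control cells in one and 47 and 344 in the other, which is led by Hbb-y, and the part of this split was not tested. Without blood, megakaryocyte and endothelial clusters Hspa1a was at 0.86 with adjusted p = 0.0541 and Hspa1b at 0.73 with adjusted p = 0.0391. Of 10 heat shock genes 2 rose, these copies, and 5 fell, among them Hspa8 and Hspd1. Without Bar22 1 fell, without Bar19 or Bar23 2, and without Bar21 or Bar10 3.

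The metallothioneins, small proteins that bind zinc and copper, both rose, with overlap. Mt1 was at 165.7, 68.0, 50.5, 75.0 and 76.0 CPM in the controls and between 114.7 and 6163 CPM in the mutants (median 795.1), highest in Bar5 (log2 3.15, SE 0.69, edgeR adjusted p = 0.0131). Mt2 rose by 3.07 (SE 0.65, adjusted p = 0.0116). With 1 sample left out Mt1 was at 2.51 to 3.59 (adjusted p up to 0.0497) and Mt2 at 2.46 to 3.54 (up to 0.0463). Without blood, megakaryocyte or myeloid and endothelial-like cells they were at 2.07 and 1.89, and neither passed in run C alone (median 1.71). Ier3, an early response gene that limits cell death, was far more even. It was at 4.78, 4.46, 6.52, 7.54 and 7.23 CPM in the controls and at 38.1 to 70.1 CPM in the mutants (median 54.4), which was a 9.26-fold rise (log2 3.21, SE 0.12, adjusted p = 2.71e-08). It was 1 of 3 of 17 immediate early genes that rose, with Atf3 and Zfp36, where 5.75% of all genes tested rose. Of the 17, 5 rose without Bar9 and 6 in run A alone. Of 14 genes of the amino acid and unfolded protein response 3 rose, Chac1, Ddit3 and Sesn2. Chac1, which degrades glutathione, went from 0.322 ± 0.155 CPM (n = 5) to 10.7 ± 10.6 CPM (n = 6; log2 4.63, SE 0.58, adjusted p = 5.21e-04). Without Bar8 5 of the 14 rose. Of 14 p53 and cell death genes none rose and 2 fell, among them Aen, a nuclease induced in cell death, where 5.99% of all genes tested fell. None fell without Bar22 or Bar23, 1 fell without any of the others but Bar8 and Bar7, and 1 rose without Bar20, Bar8 or Bar9.

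Genes of the Wnt pathway were taken by role, beside the 5.75% of all genes tested that rose and the 5.99% that fell. Of 19 Wnt ligands 12 were tested and 1 rose, Wnt11, a ligand of the branch without beta-catenin (log2 0.76, SE 0.15, edgeR adjusted p = 0.00972). Of 6 genes of Wnt secretion Wls alone passed, and Porcn, the enzyme that attaches the lipid to Wnts, was at 0.48 (adjusted p = 0.145). Of 18 receptors 1 rose, Fzd4. Of 16 tested antagonists and R-spondins, Dkk2, Dkk3 and Sfrp1 rose and Frzb fell. Sfrp1, a secreted protein that binds Wnts, was at 95.6, 100.6, 92.5, 32.2 and 73.8 CPM in the controls and at 105.0 to 135.8 CPM in the mutants (log2 0.58, SE 0.13, adjusted p = 0.0156), just above the highest control. Of 17 canonical targets 2 rose (Ascl2 and Bambi) and 2 fell (Ccnd1 and Nkd2), with a median of −0.05. Axin2, the most widely used readout of beta-catenin signalling, was at 26.0, 28.3, 14.5, 11.7 and 19.2 CPM in the controls and at 15.5 to 23.3 CPM in the mutants (median 20.2). It did not pass (log2 −0.13, SE 0.11, adjusted p = 0.522), nor did Lef1, a factor that partners beta-catenin (−0.12, SE 0.15, adjusted p = 0.676). Wnt11 was not called without Bar23, and Fzd4 without any 1 of 7 samples (Bar19, Bar21, Bar22, Bar23, Bar10, Bar8 and Bar9). Without Bar22 1 canonical target rose and 1 fell, without Bar20 3 rose, and Frzb was not called without any 1 of 6 samples (Bar22, Bar23, Bar5, Bar4, Bar10 and Bar9). The call of Wls was kept in each omission.

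Heart lists moved in part, where 5.75% of all genes tested rose and 5.99% fell. Of 15 core cardiac transcription factors 7 rose and none fell, with a median of 0.44: Gata4, Gata5, Gata6, Mef2c, Tbx20, Tbx3 and Tbx5. Tbx5, a factor of the inflow and left heart, was at 20.4, 20.8, 11.4, 6.7 and 14.1 CPM in the controls and at 17.2 to 32.4 CPM in the mutants (log2 0.67, SE 0.12, edgeR adjusted p = 0.00458), with overlap. Nkx2-5 (0.27, adjusted p = 0.465) and Isl1 (0.07, adjusted p = 0.672), the factors that define heart muscle and its progenitors, did not pass. The count was 2 without Bar23 and 3 without Bar19, Bar22, Bar10, Bar8 or Bar9. Within cardiomyocyte-like cells, a class taken up below, none of the 15 passed in edgeR on either of 2 clusterings (medians 0.02 and 0.12), where 2.13% and 3.08% of all genes tested rose. None of 18 sarcomere genes passed in edgeR or DESeq2, although their median was 0.29, and 1 passed without Bar7. Nkx2-5 and sarcomere genes such as Myl7 and Tnnt2 are among the markers that named cardiomyocyte-like cells, which limits what counts within that class show. Within cardiomyocyte-like cells 3 of the 18 rose and none fell (median 0.20). On the clustering without called genes 5 rose and none fell (median 0.25; 293 of 9521 genes higher, 3.08%, and 133 lower, 1.4%). Of 12 genes of the anterior second heart field, which builds the right ventricle and outflow tract, 1 rose (Mef2c; 0 without Bar23 and 3 without Bar20) and 4 fell. Among them were Six2 (−0.65), Eya1 (−0.59) and Tbx1 (−0.52, SE 0.15), factors of pharyngeal mesoderm. Without Bar19, Bar22, Bar23 or Bar9 1 of the 12 fell, and without Bar20, Bar5, Bar4 or Bar10 2. Of 12 genes of the posterior field, which builds the inflow tract, 3 rose, Hoxb1 and Tbx5 among them, and Nr2f1 fell. Here 1 gene rose without Bar22 or Bar10, and 3 fell without Bar7.

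Of 13 genes of the proepicardium, the cells that will cover the heart, 6 rose and none fell, with a median of 0.97. Of all genes tested 5.75% rose and 5.99% fell. Krt19, a keratin of simple epithelia, was at 23.2, 16.5, 21.6, 17.6 and 14.6 CPM in the controls and at 57.6 to 153.0 CPM in the mutants (median 101.6). It rose 5.25-fold (log2 2.39, SE 0.18, edgeR adjusted p = 1.05e-05) without overlap. Wt1, the factor that marks the epicardium, was at 7.73, 7.78, 6.31, 4.19 and 8.0 CPM in the controls and at 10.5 to 26.5 CPM in the mutants (log2 1.27, SE 0.21, adjusted p = 0.00302). Upk1b and Upk3b, uroplakins of mesothelium, rose by 1.76 and 1.26, Bnc1 by 1.07 and Mab21l2 by 1.00. Tbx18, another epicardial factor, was at 0.29 (adjusted p = 0.529). Within proepicardium-like cells 3 of 12 tested members rose and none fell (median 0.31), where 1.74% of all genes tested rose. There Wt1 and Upk3b did not pass (0.50 and −0.30, edgeR adjusted p = 0.355 and 0.611). Both are among the markers that named that class, so these values cannot show that their level per cell was unchanged. Krt19 rose there by 3.26 (SE 0.58) and in cardiomyocyte-like cells by 2.06 (SE 0.19). In posterior second heart field or splanchnic mesoderm-like cells 5 of 11 rose and none fell (median 1.38), where 4.33% of genes rose. On the clustering without called genes 6 of 12 rose in that class (median 1.20), where 352 of 10009 genes rose.

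Part of the somite genes fell, with a count that rested on single samples. Of 13 tested somite and sclerotome genes 5 fell and none rose, with a median of −0.62: Foxc1, Foxd1, Pax1, Six2 and Tcf15. Of all genes tested in whole samples 5.99% fell. Foxd1, a factor of head and trunk mesenchyme, was at 147.7, 144.3, 76.3, 46.9 and 134.7 CPM in the controls and at 12.9 to 82.8 CPM in the mutants (median 69.1), with overlap (log2 −0.94, SE 0.23, edgeR adjusted p = 0.0197). The count was 0 without Bar23, 1 without Bar22 and 2 without Bar19 or Bar9. Within paraxial mesoderm-like cells, on the clustering without called genes, 1 of 12 rose and 1 fell (median −0.01), where 7.98% of all genes tested rose and 8.5% fell. On all variable genes 2 of 13 rose and 3 fell there (median 0.0017), where 10.2% of genes rose and 11.7% fell. Pax1, Tcf15 and other genes of the list are among the markers that named this class, so these counts partly follow from its naming. Foxl2, a forkhead factor of head mesoderm, was at 9.52, 11.8, 3.29, 12.6 and 8.05 CPM in the controls and at 1.08 to 4.27 CPM in the mutants (log2 −2.04, SE 0.29, adjusted p = 0.00132). Only the control Bar4 lay within the mutants' range. Within cranial mesenchyme-like cells neither Foxd1 (−0.18, adjusted p = 0.359) nor Foxl2 (−1.05, adjusted p = 0.0773) passed. Both are among the markers that named this class, so these values cannot show that their level per cell was unchanged. Foxd2os, an antisense transcript beside Foxd2, fell by 1.17, and the counting is not stated to use strand.

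Several lists of matrix, growth and signalling genes were also measured. Of 16 matrix proteins Dcn, Fn1, Postn, Sparc and Tnc rose and none fell. Postn, periostin, rose by 1.77 (SE 0.34) and Sparc, a collagen-binding protein, by 0.83 (SE 0.10), from 180.6 ± 29.3 to 331.6 ± 34.7 CPM. Of 17 collagens 5 rose, led by Col1a1 (log2 1.25, SE 0.17, edgeR adjusted p = 0.00109), and 2 fell (Col2a1 and Col26a1), while 1 to 4 rose with single samples left out, 1 without Bar23, 2 without Bar22 and 3 without Bar19, Bar5, Bar4, Bar10 or Bar9. Of 11 imprinted growth genes 7 rose and none fell. Among them were H19 (0.41), Dlk1 (0.81) and Meg3 (0.77), while Igf2 did not pass (0.27, adjusted p = 0.268). Of 15 retinoic acid genes Cyp26b1, an enzyme that breaks retinoic acid down, rose by 2.08 (SE 0.30) and Dhrs3, which limits its synthesis, by 1.21 (SE 0.19). Rarb, a receptor, rose by 0.60 and Nr2f1 fell by 0.60. Where 5.75% of all genes tested rose and 5.99% fell, a count of 1 in lists of this size is near that share. Of 27 Hox genes 3 rose, of 16 BMP genes 4, of 14 FGF genes 1 and of 15 Notch genes 2, with 1 Notch gene (Heyl) and 1 of 12 hedgehog genes (Foxf2) lower. The BMP count was 0 without Bar23, 1 without Bar21 and 2 without Bar19, Bar22, Bar10 or Bar9, and the Hox count 0 without Bar22 or Bar10, 1 without Bar21, Bar23 or Bar8 and 5 without Bar7. Of 16 angiogenic signals and receptors 5 rose, Adm and Vegfa among them, with Apln (log2 1.35), Flt1 (0.80) and Nrp1 (0.72). Of 10 tested genes of cardiac calcium handling 2 rose (Cacna1c and Ryr2), of 11 lateral plate genes 1 (Bmp4) and of 8 smooth muscle genes 1 (Tagln). Of 11 genes of head muscle Alx1 rose by 0.69, and Ebf1 and Foxl2 fell. Most of these small counts changed with single samples left out. The calcium handling count was 0 without Bar19, Bar22, Bar23, Bar10 or Bar9 and 1 without Bar20, Bar21, Bar5, Bar4 or Bar8. The lateral plate count was 0 without Bar23, 3 without Bar5 or Bar4 and 2 without Bar7, and the smooth muscle count 0 without Bar19, Bar21, Bar22, Bar23, Bar8 or Bar9. In the head muscle list 1 fell without Bar19, Bar22, Bar23, Bar10, Bar8 or Bar9, and 2 rose without Bar20, Bar8 or Bar7. The FGF count was 0 without Bar19, Bar22 or Bar23, 2 without Bar21 and 3 without Bar20, and the Notch rises were 1 without Bar19, Bar22, Bar23 or Bar9. Heyl was not called without Bar23 and Foxf2 without Bar22 or Bar23, while 3 hedgehog genes fell without Bar7 and 2 without Bar8. Of the collagens none fell without Bar23 and 1 without any of the others but Bar20 and Bar7, and 3 retinoic acid genes fell without Bar7. None of 5 sex-linked genes passed in edgeR, against 3 without Bar20 and 4 without Bar7.

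The remaining falls by the naming rule were in Trmt61a, a tRNA methyltransferase subunit (−0.99, SE 0.14), Trpm2, a calcium channel (−0.95, SE 0.11), Rasl11a, a Ras-like protein (−0.83, SE 0.16), Mns1, a protein of motile cilia (−0.82, SE 0.19), and Gm45184, a predicted gene (−0.83, SE 0.15). Each had an adjusted p of 0.018 or below in edgeR, and Mns1 lost its call with 1 sample left out (adjusted p = 0.0617). Of these only Trmt61a had mutants and controls apart, at 10.4 to 19.3 and 26.3 to 31.1 CPM.

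To see whether the differences between genotypes were in place at an earlier stage, the effect of genotype at E9.5 was set against that at E8.0. At that stage 3 mutants and 3 controls were measured in run A. All 3 E8.0 mutants had a male share of 94.8 to 96.4%, while the controls had 6.38, 8.71 and 51.7%. Genotype and sex thus cannot be told apart at E8.0, and this holds for the interaction too. The samples of the 2 stages are separate. At E8.0 4 of 16416 genes passed (0.0244%), and Wls was one of them (log2 −2.38, edgeR adjusted p = 0.0475). No low-oxygen gene passed there, and their median was 0.15. Ddit4 was at 19.3, 24.6 and 38.4 CPM in the E8.0 mutants and at 8.72, 18.3 and 25.8 CPM in the controls, so that the groups overlapped (log2 0.56, SE 0.36, adjusted p = 0.609). Ndufa4l2 was at 19.4, 26.9 and 29.0 CPM against 9.35, 16 and 18.3 CPM (0.70, SE 0.23, adjusted p = 0.496). There each mutant was above each control, by far less than at E9.5.

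The difference of the genotype effect between the stages was tested as an interaction. It passed for 98 of 18608 genes (0.527%), 84 with the more positive effect at E9.5 (0.451%) and 14 with the more negative (0.0752%). Of the 31 low-oxygen genes 26 were among the 84, and of 19 glycolysis genes 11. Among genes with a mean of at least 10 CPM, the largest were Bhlhe40 (difference 3.23, SE 0.47), Stc2 (2.83), Ier3 (2.79, SE 0.35), Ddit4 (2.74, SE 0.38) and Hspa1a (5.29, SE 1.14, edgeR adjusted p = 0.0495). The largest in the other direction were Foxd2os (−1.56, SE 0.28), Col2a1, the cartilage collagen (−1.06, SE 0.20), Trpm2 (−0.96), Nnat, an imprinted membrane protein (−0.78, SE 0.11), and Cenpj, a centriole protein (−0.74). Nnat stood higher in each E8.0 mutant than in each E8.0 control (200.2, 208.4 and 212.6 against 144.5, 174.2 and 180.5 CPM) and lower in each E9.5 mutant than in each E9.5 control. The effect on Wls was not shown to differ (0.31, SE 0.25, adjusted p = 0.659). Stage and run are partly bound together, since E8.0 was measured in run A alone, where the interaction gave 32 genes. The count was 28, 58, 40 and 39 without the E8.0 samples Bar25, Bar26, Bar27 and Bar28, and 63, 58, 179, 52 and 50 without the E9.5 samples Bar10, Bar19, Bar20, Bar22 and Bar23.

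**Figure D3:**
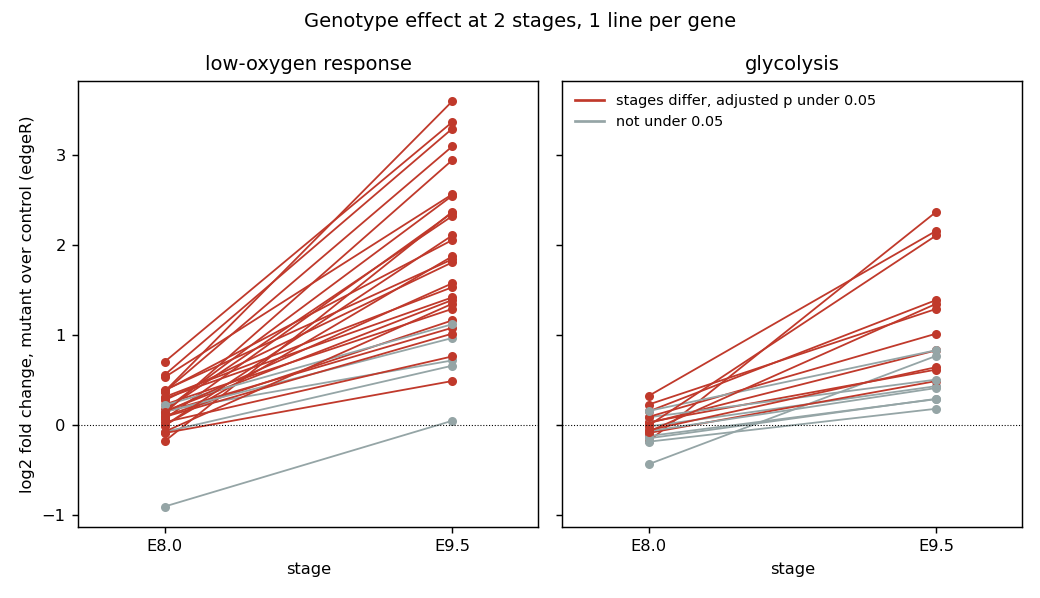
Log2 fold change, mutant over control, at E8.0 (6 samples) and at E9.5 (11 samples) for each low-oxygen gene (left) and glycolysis gene (right), with 1 line per gene, red where the interaction passed the threshold. At E8.0 the genes lie around 0, with medians of 0.15 and −0.01, and at E9.5 they lie above it, with Pfkfb4 near 0.

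The cells were then split into classes to see where the changes lay. Clusters were named from markers, on all variable genes (25 clusters) and again without the genes that differed between genotypes (23 clusters). The tests of genes within classes of the second were added after the data were seen. A class was tested where at least 3 samples of each genotype held 20 or more of its cells. Doublets were not removed. The class counts below are from the first clustering, except for cranial mesenchyme and proepicardium, which had enough cells in the second alone, and where the second is named.

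Low-oxygen genes rose in part or for the most part within 6 of the 7 classes tested, and none was called in blood-like cells. The fewest of the 6 rose in lateral plate or limb-like cells. In posterior second heart field or splanchnic mesoderm-like cells 28 of 29 tested members rose (median 2.50), where 420 of 9699 genes rose (4.33%) and 235 fell (2.42%). In cranial mesenchyme-like cells 29 of 30 rose (median 2.13; 349 of 10647 genes higher, 3.28%, and 234 lower, 2.2%). In paraxial mesoderm-like cells 27 of 29 rose on the clustering without called genes (median 1.65; 915 of 11473 genes higher, 7.98%, and 975 lower, 8.5%). With all variable genes 29 of 31 rose there (median 2.02; 1284 of 12554 genes higher, 10.2%, and 1466 lower, 11.7%), but most mutant cells of that class came from a cluster led by Ndufa4l2, Ddit4, Ier3 and Stc2 themselves, so those values partly describe how it was formed. In proepicardium-like cells 25 of 28 rose (median 1.87; 156 of 8945 genes higher, 1.74%, and 22 lower, 0.246%). In cardiomyocyte-like cells 26 of 30 rose (median 1.28; 200 of 9382 genes higher, 2.13%, and 79 lower, 0.842%). In lateral plate or limb-like cells 14 of 31 rose (median 1.12; 63 of 12737 genes higher, 0.495%, and 13 lower, 0.102%). In blood-like cells none of 25 passed in edgeR (median 0.60), where 18 of 10687 genes rose (0.168%) and 3 fell (0.0281%). Numbers of cells and samples differ between classes, and whether the effect differs between them was not tested.

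**Figure D4:**
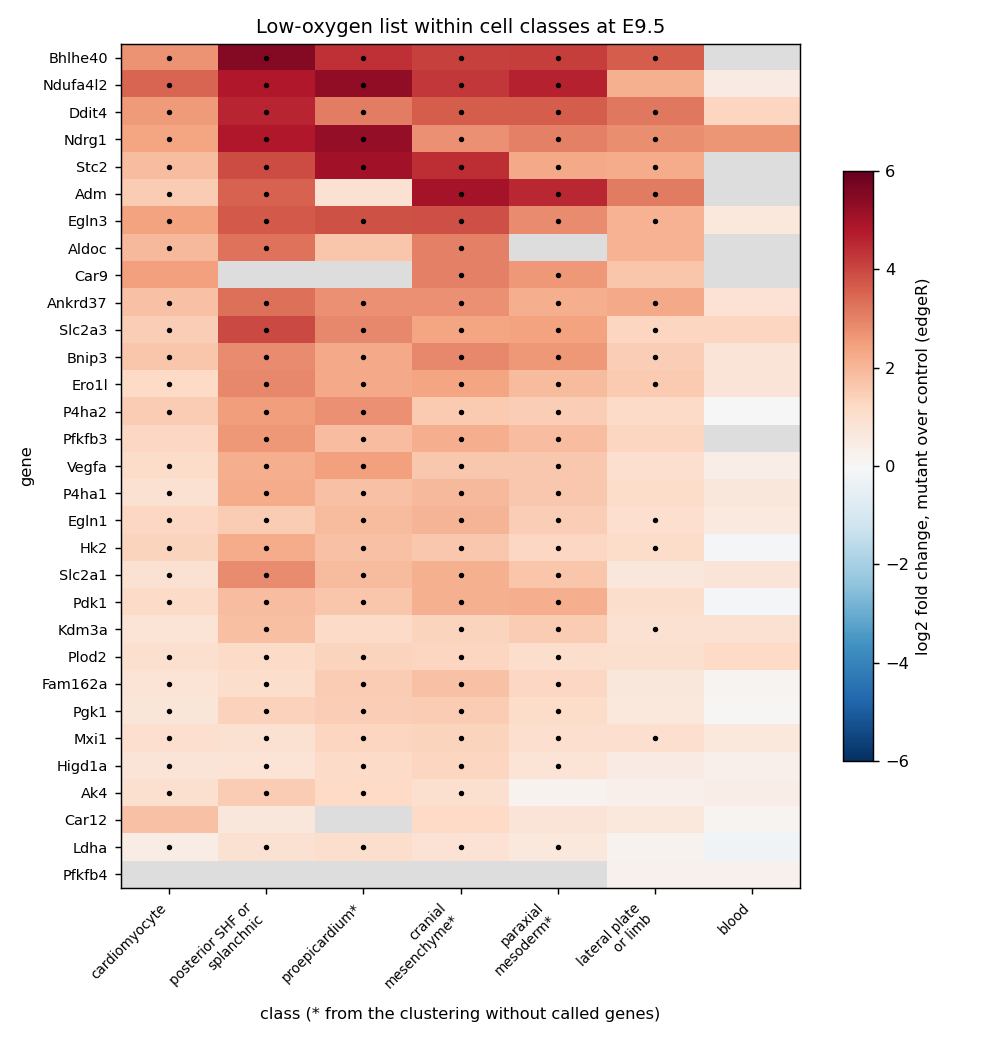
Log2 fold change, mutant over control, of the 31 low-oxygen genes (rows) within 7 cell classes (columns) at E9.5, as a colour scale from −6 to 6, with a dot where the edgeR adjusted p was under 0.05 and grey where a gene was not tested. Dots fill most of the first 5 columns, 14 cells of the lateral plate or limb column and none of the blood column.

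The size of the rise can be read from Ddit4. In posterior second heart field or splanchnic mesoderm-like cells the mutants had 572.0 ± 250.2 CPM and the controls 27.7 ± 13.6 CPM (n = 4 each; log2 4.59, SE 0.43). In paraxial mesoderm-like cells of the clustering without called genes it was at 203.6 ± 54.8 against 12.9 ± 6.82 CPM (3.64, SE 0.23) and in cardiomyocyte-like cells at 60.1 ± 33.5 (n = 4) against 9.84 ± 2.52 CPM (n = 5; 2.54, SE 0.34). The genotypes did not overlap in any of these 3 classes. In blood-like cells it was at 4.75 ± 3.78 against 2.1 ± 1.16 CPM, with overlap (1.28, SE 0.47, edgeR adjusted p = 0.365). Wls was at 1.05 ± 0.781 CPM in the blood-like cells of mutants and at 3.64 ± 1.14 CPM in those of controls, a low level in both (−1.33, adjusted p = 0.364). Of the glycolysis genes 18 of 19 rose in cranial mesenchyme-like cells, where 3.28% of all genes tested rose. In paraxial mesoderm-like cells of the clustering without called genes 17 of 18 rose (7.98% of all genes). In posterior second heart field-like cells 16 of 19 rose (4.33%), in proepicardium-like 16 of 19 (1.74%) and in cardiomyocyte-like 13 of 19 (2.13%). In lateral plate or limb-like cells 3 of 19 rose (0.495%) and in blood-like cells none of 18 (0.168%).

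Some genes moved within a class in a direction that the whole samples did not show. The posterior second heart field or splanchnic mesoderm-like class was 1 cluster at resolution 1 in both clusterings, but at resolution 2 on all variable genes it split by genotype: a cluster led by Barx1, Ddit4 and Hlx held 119 mutant and 0 control cells, and the other 2 held 38 and 209, and 30 and 131. Values in that class thus partly compare subclusters, and their part was not tested. In posterior second heart field or splanchnic mesoderm-like cells Tbx5 had a mean of 19.6 ± 6.87 CPM in the mutants and 64.5 ± 9.63 CPM in the controls (n = 4 each). It was lower by 1.84 on the log2 scale (SE 0.25, edgeR adjusted p = 0.0014) and did not overlap, whereas it rose in whole samples. The clustering without called genes gave −1.39 (adjusted p = 0.00883). In lateral plate or limb-like cells Isl1, a factor of hindlimb and heart progenitors, was at 6.04 ± 3.09 against 21.3 ± 9.33 CPM (−1.72, SE 0.26, adjusted p = 0.0182), also without overlap, and the clustering without called genes gave −1.81 (adjusted p = 0.0154). That class held 2 clusters that the genotypes filled unequally, one with 358 mutant and 489 control cells and one led by Pitx1, a hindlimb factor, with 110 and 281, and their part was not tested. Nkx6-1, a homeobox factor, fell in the posterior second heart field class from 34.6 ± 27.2 to 4.8 ± 4.94 CPM (−2.54, SE 0.54, adjusted p = 0.0172). Nxph4, a secreted neurexin ligand, had 63 UMIs of 2554868 in the mutant cells of that class and 0 of 5942946 in its controls. Over samples it was at 24.7 ± 20.9 CPM in the mutants and 0 CPM in the controls (n = 4 each, edgeR adjusted p = 0.0063). Against a floor of 3 counts in the pooled controls (0.505 CPM) the pooled mutant level was 48.8-fold higher. That ratio leaves out the spread between samples. The class tests also ranked high the ribosomal pseudogenes Rps15a-ps8 and Rps13-ps1, whose reads may belong to their parent genes, and the Y-linked Eif2s3y, which follows the sex of the samples. In the paraxial mesoderm-like class of the clustering on all variable genes the 2 genotypes came from different clusters: 259 of the 261 cells of one cluster were mutant and 575 of the 622 of another were control, with 128 and 291 cells in the one left. Values in that class compare these clusters.

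Counts per class depended on single samples. Without the mutant Bar20 the count of called genes rose from 21 to 595 in blood-like, from 76 to 744 in lateral plate or limb-like and from 655 to 1668 in posterior second heart field or splanchnic mesoderm-like cells. Without the control Bar22 it was 9, 11 and 80 in these, 134 rather than 279 in cardiomyocyte-like and 1365 rather than 2750 in paraxial mesoderm-like cells, and without the control Bar23 it was 11, 12, 117, 132 and 1277. Without Bar10 it was 1 in blood-like, 25 in lateral plate or limb-like and 353 in posterior second heart field-like cells, and without Bar9 4, 25 and 346. Blood-like cells had 11 without Bar4 and 10 without Bar7. Without Bar19 it was 24 in lateral plate or limb-like, 408 in posterior second heart field-like and 116 in cardiomyocyte-like cells, without Bar21 24 and 234 in the former 2, and without Bar8 431 in cardiomyocyte-like cells.

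Shares of the classes were compared over samples, on the clustering without called genes. Cranial mesenchyme-like cells made up 17.6, 19.1, 8.22, 11 and 17.1% of the controls Bar22, Bar23, Bar4, Bar7 and Bar9 and 5.26 to 8.63% of the mutants. The means were 14.6 ± 4.73% (n = 5) and 6.9 ± 1.36% (SD, n = 6). Within runs the mutants were lower by 7.9 percentage points (two-sided exact permutation p = 0.00833, the smallest that 120 assignments within runs can give, adjusted to 0.108 over 13 classes). With clusters from all variable genes the shares were 2.92 ± 1.98% and 11.3 ± 4.64%, where the class held 65 mutant cells rather than 193. In that clustering a cluster of 259 mutant and 2 control cells, led in part by Fst, Cped1 and Foxd1, was named paraxial mesoderm-like, so the share there depends on where these cells are counted. Proepicardium-like cells made up 2.96, 4.07, 3.12, 0.61 and 1.74% of the controls and 4.17 to 12.3% of the mutants, at means of 2.5 ± 1.34% and 7.23 ± 3.33% (difference 4.8 points, exact permutation p = 0.0167, adjusted 0.108). With all variable genes the class was smaller, at 2.07 ± 1.62% of mutants and 0.821 ± 0.343% of controls (exact permutation p = 0.0333, adjusted 0.217). No class passed after adjustment. A class that alone reached the smallest p would be adjusted to 0.108, so it could not pass whatever its shares. The paraxial mesoderm-like share changed direction with the clustering, with mutants lower by 3.75 points without called genes and higher by 0.59 points with all. Cardiomyocyte-like cells made up 7.31 ± 4.68% of mutants and 7.32 ± 4.7% of controls, and blood-like cells 17.2 ± 8.41% and 21.5 ± 13.7%.

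**Figure D5:**
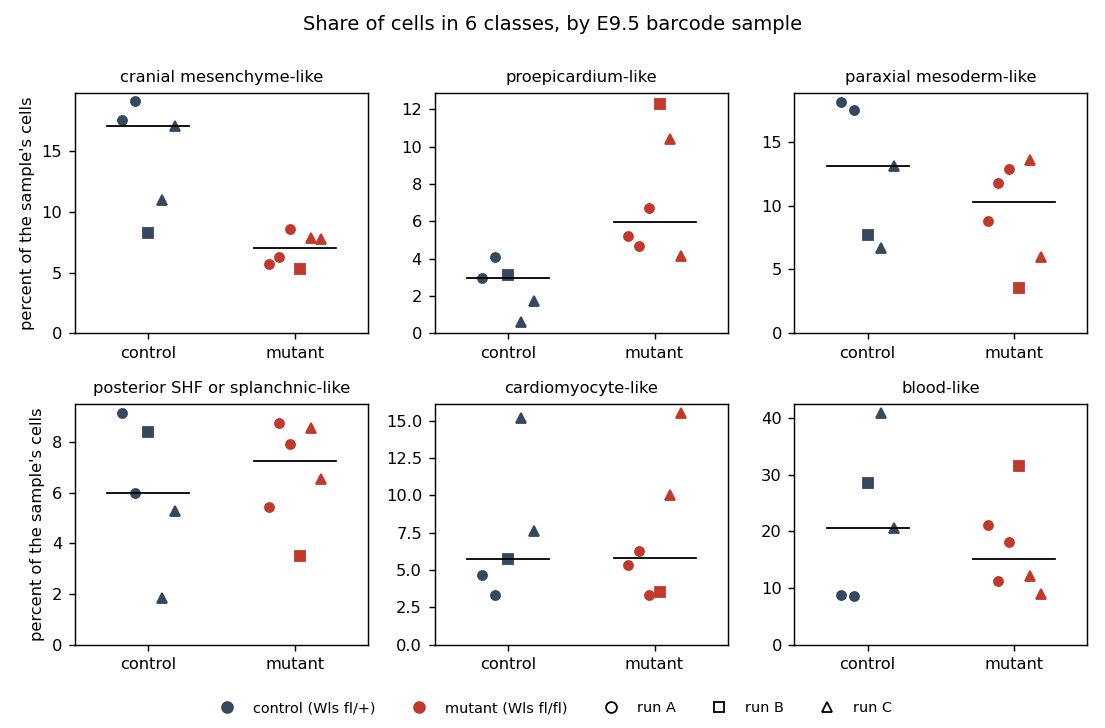
Share of cells in 6 classes, in percent of the cells of each E9.5 barcode sample, 5 controls (dark) and 6 mutants (red), with the marker shape giving the run and the line the median, on the clustering without called genes. Cranial mesenchyme-like shares are lower in the mutants (5.26 to 8.63%) with the control Bar4 at 8.22%, proepicardium-like shares are higher (4.17 to 12.3%), and the other 4 classes overlap widely.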

How the data were processed

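Single cells sorted for the Ai9 reporter were profiled with 10x Chromium v3 after MULTI-seq barcoding. The submitters' processing notes name kallisto, bustools 0.46.1, Cell Ranger and GRCm38, with no role or order. The deposited matrix holds raw UMI counts per gene and cell, which the authors did not normalize. The deposited per-cell table gave run, barcode, stage and genotype. A second, dense table was not used.

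Counts were summed per barcode sample with 20 cells or more. Genotypes were compared by the quasi-likelihood test of edgeR 4.0.16 (R 4.3.3), two-sided, with run as a term, TMM scaling and the filterByExpr filter. P-values were adjusted by Benjamini-Hochberg over all genes tested, with a threshold of 0.05. SE is the size of the log2 fold change divided by the square root of F. The same test served within classes and for the interaction with E8.0. It was checked on simulated counts with 200 changed genes. In the E9.5 comparison 63% of genes changed by 1 on the log2 scale and 95% of those changed by 2 were recovered, with 14 false calls. In the interaction these were 39%, 77% and 3. Within classes 50 to 74% and 88 to 97% were recovered, with 6 to 21 false calls. In the E9.5 comparison and in some classes the false calls were a larger share of all calls than 0.05. The simulated counts held no effect of run on single genes. Clustering used scanpy 1.11.5 with Leiden communities (leidenalg 0.10.2, Python 3.11.15; 2000 variable genes a run, 30 components, 20 neighbours, resolution 1). Clusters were named from marker genes, and doublets were kept. Shares were compared by exact permutation within runs. Alternatives were DESeq2 1.42.0, limma 3.58.1 (voom), RLE scaling, no filter, other covariates, runs, cells and clusterings, and each sample left out; some list counts and the gene tests within classes of the clustering without called genes were added after seeing the data.

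Genes named are Wls, the 12 largest rises and falls among called genes with a mean of at least 10 CPM and the same sign in each run, the 5 largest in each direction of the interaction, some of the 3 largest in each direction of a class, and members of 45 lists. The members and lists were chosen with earlier results of these data known. A few list members counted in the text are not reported here by name.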

Additional observations from a re-analysis of the deposited data

Results flagged for a closer look

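Of 74 groups of samples checked, 8 had a lowest or highest sample far from the rest, and chance alone gives about 1 in 20 groups. In the shallow mutant Bar5, Mt1 reached 6163 CPM, Mt2 834.2 CPM and Stc2 67.9 CPM, while Foxd1 was at 12.9 CPM, the lowest of the mutants. In the control Bar22, Mt1 was at 165.7 CPM and Mt2 at 44.5 CPM, above the other controls. Egln3 was highest among the controls in Bar4, at 5.08 CPM, and Bhlhe40 lowest in Bar7, at 0.838 CPM.

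Of the 98 genes that passed the edgeR interaction between the stages E9.5 and E8.0, 10 are given here. They are the 5 largest in each direction with a mean of at least 10 CPM, so they were picked by this same test. The effect of genotype was more positive at E9.5, in log2 units, by 5.29 for Hspa1a, 3.23 for Bhlhe40, 2.83 for Stc2, 2.79 for Ier3 and 2.74 for Ddit4. The difference was −1.56 for Foxd2os, −1.06 for Col2a1, −0.96 for Trpm2, −0.78 for Nnat and −0.74 for Cenpj.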

How the results depend on the processing

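Wls and the low-oxygen list kept their direction under each alternative run. The 2121 genes called at E9.5 became 446 with equal numbers of cells (59.2% of them higher, against 49%), 754 without the run term, 1283 in run A alone, 58 in run C alone, 80 without run A and 789 to 2489 with 1 sample left out. The 98 interaction genes became 466 in DESeq2, 792 without a filter, 32 in run A alone and 28 to 179 with 1 sample left out. Class counts with 1 sample left out were 1 to 595 in blood-like, 116 to 431 in cardiomyocyte-like, 11 to 744 in lateral plate or limb-like, 1277 to 2774 in paraxial mesoderm-like and 80 to 1668 in posterior second heart field or splanchnic mesoderm-like cells. With at least 50 cells a sample, blood-like cells gave 1 and lateral plate or limb-like cells 25. At resolution 2 the latter gave 21 and paraxial mesoderm-like cells 961, and without called genes in the clustering cardiomyocyte-like cells gave 426.

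Share differences (mutant minus control, points) changed sign as follows. Without called genes in the clustering they were −0.21 for endoderm, 0.46 for neural and −3.75 for paraxial mesoderm-like cells, at resolution 2 0.44 for neural and −7.54 for paraxial, and at resolution 0.5 −0.15 for megakaryocyte or myeloid-like cells. With 1 sample left out they ranged from −4.62 to 2.22 for blood, −0.14 to 1.81 for cardiomyocyte, −0.71 to 0.12 for cranial muscle, −0.0095 to 0.32 for endoderm, −0.56 to 0.28 for neural and −0.79 to 1.23 for paraxial mesoderm-like cells. The causes were not tested. No paired analysis was possible because the labels give the genotypes no shared replicate numbers; run was the block instead. Depth was low in run C (median of 11822 UMIs a cell), and cells were few in the smaller classes and in the mutant Bar5 (57 cells). Their part in the results was not tested.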
